A study of Drosophila melanogaster with 4 samples.

Results

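Cyclin E, encoded by CycE, is the cyclin that partners Cdk2 and drives cells from G1 into S phase. In flies the gene is transcribed from alternative promoters into mRNAs that differ at their 5′ ends, and its expression in developing tissues depends on regulatory DNA spread over a long stretch of the gene. Fly Myb, the homolog of the vertebrate Myb oncoproteins, is a DNA-binding subunit of the Myb-MuvB/dREAM complex, which also holds E2F2, Dp and Rbf proteins and binds the promoters of many cell cycle genes. The wing imaginal disc is the larval epithelium that becomes the wing, and its cells proliferate through larval life. The question addressed here was where along CycE Myb was found on the chromatin of this tissue.

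The locus was taken as chr2L:15715000-15760000 of the dm3 (release 5) assembly, 45 kb around an approximate gene span of chr2L:15727000-15748000. All genome probes of the tiling array that lie within it were used, 577 of 1870562 on the arrays. They have a median length of 50 bp and their starts lie a median of 67 bp apart, except for gaps of 716 bp at the edge of the gene span and 699 bp within the flank. One of these probes was an outlier spot in replicate 2, and the other 576 were measured in both replicates. In the RefSeq gene list, which is of another assembly and was read for the order of genes only, stol lies beside CycE on the side of lower coordinates. On the other side come ND-B17, snRNA:U5:35D, Mtr4 and Gli. The list gives 6 transcripts and 6 proteins for CycE, places the non-coding gene lncRNA:CR44974 inside it, and lets the antisense gene asRNA:CR44866 overlap the end that faces ND-B17. No dm3 annotation was used, so the starts of the CycE transcripts and its introns were not placed, and the gene was described by its position between the neighbors instead. The gene span was divided into 3 parts of 7 kb, called here the stol-side, middle and ND-B17-side part, with a flank of 12 kb on each side (the stol flank and the ND-B17 flank).

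Chromatin for ChIP-chip, in which immunoprecipitated DNA is hybridized to a tiling array beside input DNA, came from wing discs dissected from male 3rd instar larvae of the yw67 strain, which carries visible body and eye color mutations and was the control genotype of the study. The Myb immunoprecipitate was labeled with Cy5 and the input, sonicated genomic DNA, with Cy3, always in that orientation. There were 2 biological replicates, each hybridized to 2 array designs, and CycE is on design 1 only, so every value below rests on 2 arrays. A value is the log2 of immunoprecipitate over input after the median of the array was set to 0, so 0 means the recovery of the median probe and not absence of Myb. Each immunoprecipitation pooled many discs, so the cell types of the disc and the stages of the cell cycle are averaged. No mock immunoprecipitate and no tissue without Myb was analysed here.

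Across the 576 probes the replicates correlated with Pearson's r = 0.72 and Spearman's rho = 0.73, against 0.67 and 0.66 over the 931523 probes of design 1, as a description over probes that share fragments and arrays. No spot of the locus was saturated. Of the 577 spots, 558 in replicate 1 and 552 in replicate 2 had an input signal well above background. Of the rest in replicate 1, 7 lay in the ND-B17-side part and 9 in the ND-B17 flank, with 1 in each other stretch. In replicate 2 these counts were 11 and 12, with at most 1 in each other stretch. Each replicate was scanned as a batch of its own, so a difference between replicates cannot be told apart from one between scans.

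Myb was concentrated at the end of CycE that faces ND-B17. Its ND-B17-side part averaged a log2 ratio of 0.58 in the first replicate and 1.07 in the second (0.83 ± 0.35, SD, n = 2). The middle part was at 0.10 in both replicates, and the stol-side part at 0.05 and 0.08. Beyond the gene, the ND-B17 flank averaged 0.31 and 0.51 and the stol flank −0.33 and −0.36. The order of the 5 stretches was thus the same in both replicates.

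**Figure D1:**
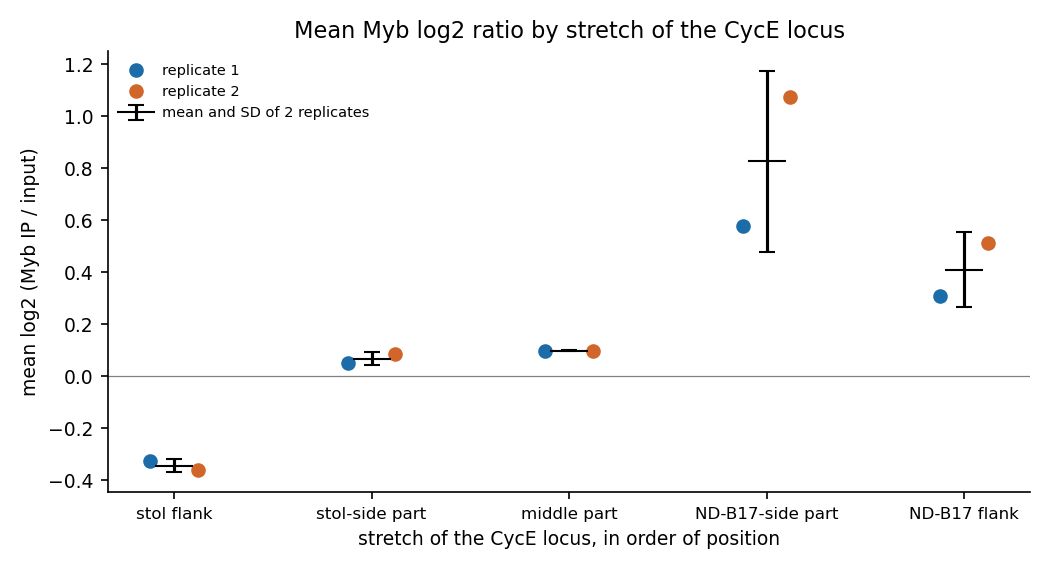
Mean log2 ratio of Myb immunoprecipitate over input (vertical axis) of the 5 stretches of the CycE locus in order of position, with 1 point per replicate and the mean and SD of 2 replicates. The ND-B17-side part is the highest in both replicates, at 0.58 and 1.07, and the stol flank the only stretch below 0.

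The ND-B17-side part exceeded the stol-side part by 0.53 in replicate 1 and 0.99 in replicate 2, and the middle part by 0.48 and 0.97. It exceeded the adjoining ND-B17 flank by less, 0.27 and 0.56. The middle and the stol-side part differed by 0.05 and 0.01, less than any of the differences above. These are values without a test, since an exact two-sided sign test of 2 replicates cannot go below p = 0.5. The gene span as a whole averaged 0.25 and 0.43 (0.34 ± 0.13, SD, n = 2), which was higher than 75.2% of the 5635 windows of 21 kb on the 6 chromosome arms, whose median was 0.09. Its highest 1-kb bin, in contrast, was above the highest bin of 96.1% of these windows.

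For tests along the locus, probes were averaged in bins of 1 kb and each bin was tested against 0 with limma, with Benjamini-Hochberg adjustment over 118736 bins. Of the 45 bins of the locus, 14 were called enriched, 4 depleted and 27 neither. Among all bins, 23.5% were called enriched and 10.9% depleted. In the ND-B17-side part, 6 of 7 bins were called enriched, in the middle part 0 of 7, in the stol-side part 1 of 7, in the ND-B17 flank 7 of 12 and in the stol flank 0 of 12. In the main processing, all 4 depleted bins lay in the stol flank. With normexp background correction, 3 of the 7 bins of the ND-B17-side part were still called, after losses at chr2L:15742001-15743000, chr2L:15745001-15746000 and chr2L:15747001-15748000. Normexp called 5 bins depleted, among them chr2L:15727001-15728000 in the stol-side part and chr2L:15749001-15750000 in the ND-B17 flank. A bin that was not called may still hold a ratio too small to be told from 0 with 2 replicates.

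**Figure D2:**
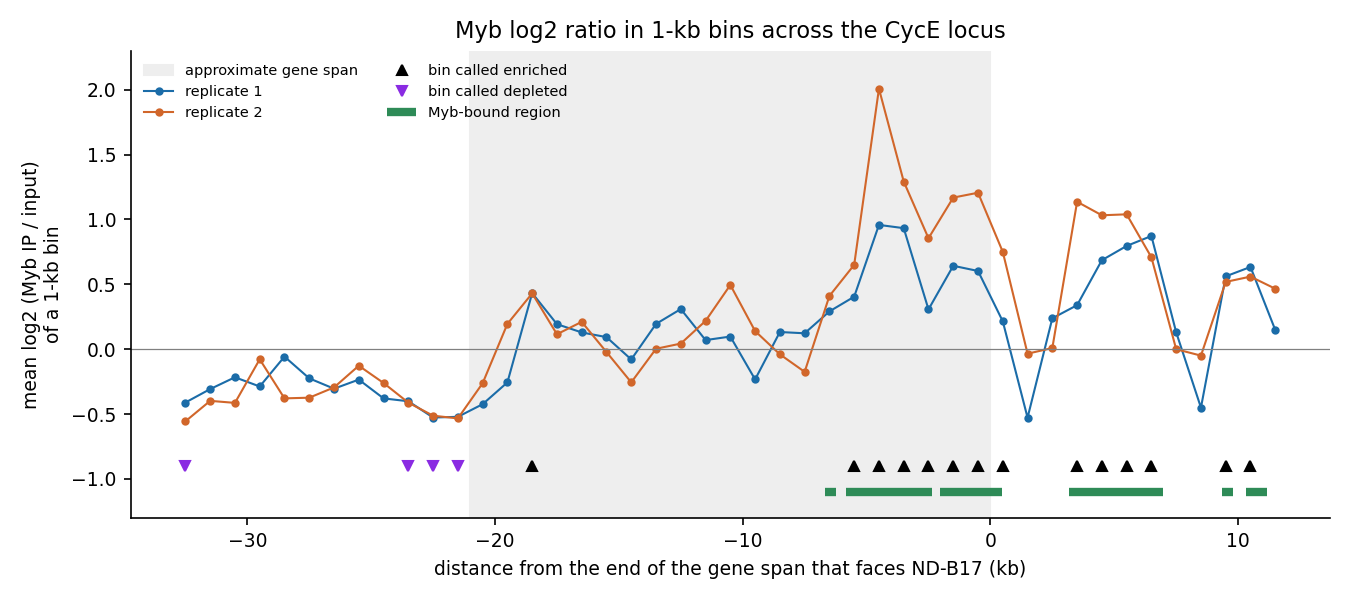
Mean log2 ratio of each 1-kb bin (vertical axis) in replicates 1 and 2 against the distance in kb from the end of the gene span that faces ND-B17, with the gene span shaded. Triangles mark bins called enriched or depleted and green bars the Myb-bound regions. The signal is near 0 over most of the gene, rises over the last 7 kb before the end and forms separate humps beyond it.

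The highest bin of the locus, chr2L:15743001-15744000, lay in the ND-B17-side part. Its log2 ratios were 0.96 and 2.01 in replicates 1 and 2, on average 1.48 ± 0.74 (SD, n = 2) or 2.79-fold recovery over the median probe (limma, adjusted p = 4.7e-06). Both replicates were well above 0 and differed from each other by more than in any other bin of this part. The mean stood above 99.8% of all bins. The neighboring bin, chr2L:15744001-15745000, was the next highest, at 0.93 and 1.29 (mean 1.11, adjusted p = 1.4e-05).

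Next in order were a bin outside the gene and a pair at its end. The bin chr2L:15753001-15754000 in the ND-B17 flank measured 0.80 and 1.04 (mean 0.92, adjusted p = 8.9e-05). At the end of the gene, chr2L:15746001-15747000 measured 0.64 and 1.17 (mean 0.91, adjusted p = 0.00016) and chr2L:15747001-15748000 measured 0.60 and 1.21 (mean 0.90, adjusted p = 0.00020). These 3 means lay within 0.02 of each other, less than their spread, and have no order. At chr2L:15747001-15748000 the mean with normexp was 0.17 (adjusted p = 0.38). The 2 arrays disagreed in size along this end of the gene: replicate 2 was higher than replicate 1 in all 8 bins of chr2L:15741001-15749000, by 0.12 to 1.05 with a median of 0.53.

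The lowest bin of the ND-B17-side part was its first, chr2L:15741001-15742000, at 0.29 and 0.41 (mean 0.35, adjusted p = 0.076). It was the only bin of the 7 that was not called, and it passed the test when the arrays were centred on the mode of the probes (0.45, adjusted p = 0.024) and when spots not well above background were left out (0.39, adjusted p = 0.044).

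Over the rest of the gene the signal was close to the array median. In the middle part, the bins ranged from −0.05 to 0.30 in the mean of both replicates, and 3 of the 7 had opposite signs in the 2 replicates. The highest of them, chr2L:15737001-15738000, measured 0.10 and 0.49 (adjusted p = 0.15), and the lowest, chr2L:15738001-15739000, −0.23 and 0.14 (adjusted p = 0.84). The stol-side part held 1 exception. There chr2L:15729001-15730000 measured 0.43 in both replicates and was called enriched (adjusted p = 0.031), at a level above 78.3% of all bins. Read alone, each replicate held a bound region here, replicate 1 at chr2L:15729887-15730134 and replicate 2 at chr2L:15729167-15729540, and these did not overlap. The lowest bin of the gene span, chr2L:15727001-15728000, was its first, with −0.42 and −0.26 (adjusted p = 0.083) over 6 probes.

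The stol flank was below the array median throughout. All 12 of its bins were negative in both replicates, between −0.53 and −0.18 in the mean. The lowest bin of the locus, chr2L:15726001-15727000, is the last before the gene span and measured −0.52 and −0.53 (mean −0.53 ± 0.01, SD, n = 2, adjusted p = 0.0096). With the bins on its stol side, chr2L:15725001-15726000 (−0.53 and −0.51, adjusted p = 0.011) and chr2L:15724001-15725000 (−0.40 and −0.41, adjusted p = 0.040), it formed a run of 3 bins called depleted. The call at chr2L:15724001-15725000 was lost when arrays were centred on the mode or corrected with normexp. The 3 bins of the run had a bright input, with a mean log2 intensity of 13.0 to 13.5 in replicate 1. The bin after them, chr2L:15727001-15728000, had 8.46, and the other depleted bin, chr2L:15715001-15716000, had 9.70. Whether the bright input bears on the ratios of this run was not tested. The highest bin of this flank, chr2L:15722001-15723000, measured −0.23 and −0.13 (adjusted p = 0.37).

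Steps between consecutive bins were tested in the same way over 118381 pairs, of which 1.93% were called up and 1.97% down in the direction of rising coordinates. Of the 44 steps of the locus, 2 were called up and 2 down. Each replicate rose into the highest bin, by 0.55 and 1.36 from chr2L:15742001-15743000 (mean 0.96, adjusted p = 0.0094). In the mean of both replicates this was the largest rise in the locus, except with normexp. There it was 0.69, and the rise into chr2L:15757001-15758000 was 0.89. In replicate 1 alone, the rise into chr2L:15757001-15758000 was also the larger, at 1.01. Past the end of the gene the signal dropped by 0.74 and 0.78 into chr2L:15749001-15750000 (limma, adjusted p = 0.016). This bin, the lowest mean of the ND-B17 flank here, measured −0.53 and −0.03 (mean −0.28, adjusted p = 0.17). Neither its sign nor the fall into it was stable. With normexp the bin was lower, at −0.46, and called depleted (adjusted p = 0.0064), and the fall stayed called (−0.73, adjusted p = 0.0015). On the authors' log2 values the bin was at 0.04 and the fall was not called (−0.56, adjusted p = 0.095), and without spots not well above background the bin was at 0.09 and the fall again not called (−0.49, adjusted p = 0.12). Farther out, the second hump of binding ended with a fall of 0.74 and 0.71 after chr2L:15754001-15755000 (adjusted p = 0.021), and the last one began with a rise of 1.01 and 0.57 into chr2L:15757001-15758000 (adjusted p = 0.017).

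Myb-bound regions were called on the mean of both replicates with the thresholds of the study's neighborhood rule. A probe counts with a mean p below 0.05 over itself and a neighbor. A region needs at least 4 such probes no more than 300 bp apart. The null distribution was fitted here and the replicates were averaged, so these regions are not the peaks of the study. Over the whole series they were more numerous than the peaks the paper reports. The locus held 6 regions, none of them in the stol flank, the stol-side part or the middle part. With normexp, and also without spots not well above background, a short region was called in the stol-side part, chr2L:15729887-15730134, and another in the middle part, chr2L:15737542-15737925. The 6 regions of the main processing covered 84.6% of the ND-B17-side part and 46.0% of the ND-B17 flank, and 5921 bp or 28.2% of the gene span. Of the 576 probes, 152 (26.4%) lay inside a region, against 18.5% of all probes on the 6 arms.

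Of these 6 regions, 3 were wide. The region chr2L:15742176-15745628 (3453 bp, 46 probes) lay inside the gene. It averaged 0.73 and 1.31 in replicates 1 and 2 (1.02 ± 0.41, SD, n = 2). In its mean it stood above 86.1% of the 17564 regions called here over the whole series. Its highest 4 consecutive probes, chr2L:15743442-15743683, averaged 1.50 and 2.60. The region chr2L:15745973-15748470 (2498 bp, 34 probes) ran across the end of the gene span and averaged 0.64 and 1.23 (0.93 ± 0.41, SD, n = 2), with its highest probes at chr2L:15747103-15747342 (1.58 and 2.21). A gap of 344 bp separated both regions, and its 5 probes averaged −0.23 and 0.35. The summits of these regions lay 3660 bp apart, but the gap between them is shorter than the average sheared fragment of the study. Each replicate alone also gave separate regions here. With a mean p below 0.001 the first region was itself split, into chr2L:15742708-15743947 and chr2L:15744446-15744900. Whether these are separate sites of binding was not tested.

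The third wide region, chr2L:15751187-15754949 (3763 bp, 49 probes), lay outside the gene span in the ND-B17 flank and was longer than 95.4% of all regions. It averaged 0.74 and 1.01 (0.88 ± 0.19, SD, n = 2), and its highest probes, chr2L:15753706-15754019, 1.27 and 1.42. The summit was 6640 bp from the summit at the gene end, across 2716 bp whose 35 probes averaged −0.17 and 0.06. Under each of the 10 alternative settings tried, among them each replicate alone, some bound stretch overlapped each of these 3 regions, but their extent was not stable. Some of these settings, such as mode centring and leaving out saturated spots, returned the coordinates of the main processing and are no separate check. The region in the flank was split into 2 in each replicate alone, and with a mean p below 0.001 it shrank to chr2L:15751990-15752377, which does not hold its summit. Normexp split the region at the gene end into 2.

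The remaining regions were narrow and depended on the replicate. The region chr2L:15741320-15741759 (440 bp), in the ND-B17-side part, averaged 0.43 and 0.64 and was not called in either replicate alone. Near the edge of the locus, chr2L:15757353-15757798 (446 bp) averaged 1.03 and 0.70 and was called in replicate 1 alone but not in replicate 2 alone. The converse held for chr2L:15758339-15759176 (838 bp), which averaged 0.74 and 0.77. When the mean p had to lie below 0.01, the locus kept 4 regions, and none of them overlapped these narrow ones.

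**Figure D3:**
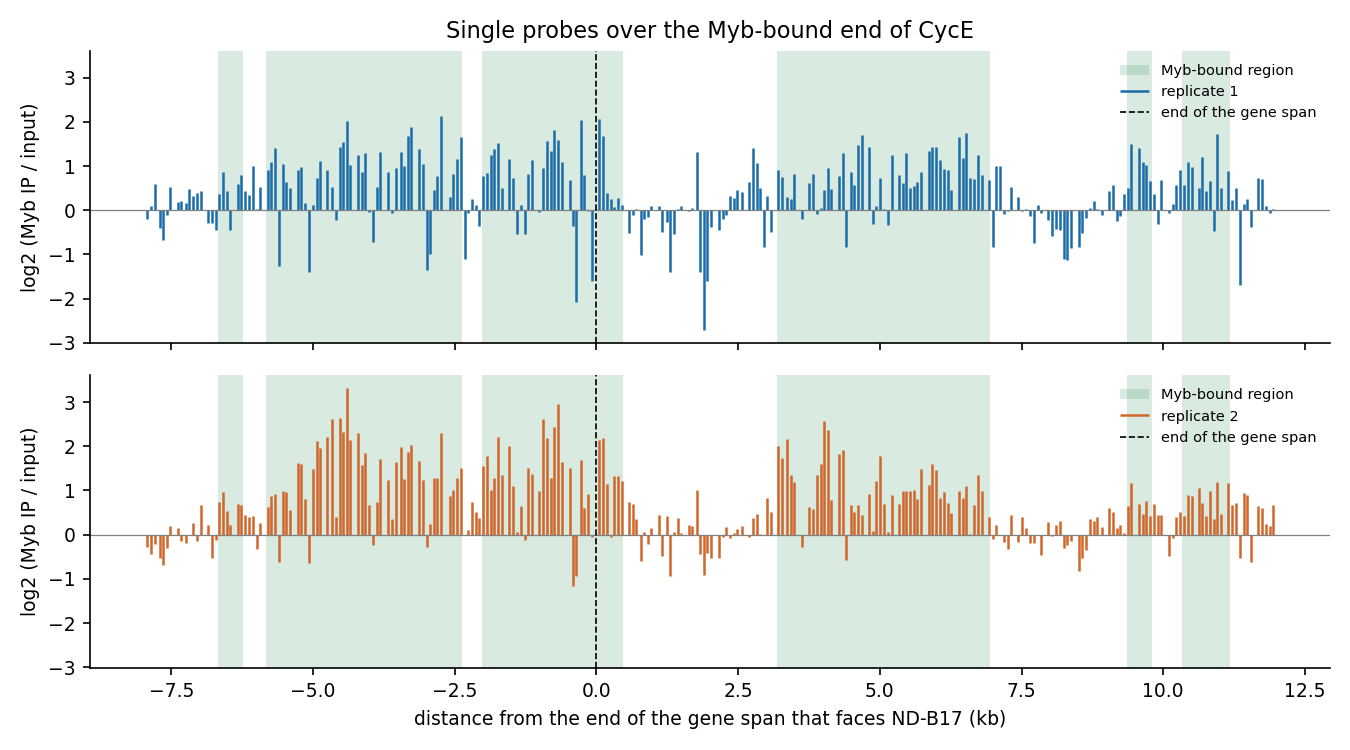
Log2 ratio of every probe (vertical bars) in replicate 1 (upper panel) and replicate 2 (lower panel) from 8 kb inside the gene to the far edge of the ND-B17 flank, against the distance in kb from the end of the gene span (dashed line). Shading marks the 6 Myb-bound regions. Most probes inside the 3 wide regions are above 0 in both panels, and single probes below 0 stand between them.

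Single probes called enriched also clustered at the ND-B17 side of the locus. Single probes called depleted in the main processing did not cluster in the stol flank as the depleted bins did. In the limma fit over 1865871 probes, 101 of the 576 were called enriched and 15 depleted, beside 9.77% and 3.86% of all probes. In the ND-B17-side part 52 of 93 probes were enriched, in the middle part 2 of 91, in the stol-side part 4 of 85, in the ND-B17 flank 43 of 158 and in the stol flank 0 of 149. Of the 15 depleted probes, 7 lay in the ND-B17 flank, 3 in the ND-B17-side part, 1 in the stol-side part, 0 in the middle part and 4 in the stol flank. Their number was not stable, with 41 under normexp, 29 when adjusted over design 1 alone, 9 under mode centring and 8 on the authors' values. Without saturated spots it was 15, and without spots not well above background 13. Where the depleted probes lay under these alternatives was not examined. Within the bound regions 93 probes were called enriched and 3 depleted.

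The highest probe, chr2L:15743576-15743625, measured 2.02 and 3.31 (adjusted p = 0.00098). Its input intensity was 190.0 in replicate 1 and 70.6 in replicate 2, against immunoprecipitate intensities of 799 and 698, so the higher ratio of replicate 2 came with a lower input. The probe chr2L:15747293-15747342 measured 1.60 and 2.96 (adjusted p = 0.0016), again with the lower input intensity in replicate 2 (297 and 128). At chr2L:15745237-15745286 the replicates were closer, at 2.14 and 2.31 (adjusted p = 0.00082).

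The lowest probe, chr2L:15749877-15749926, at −2.71 and −0.90, was not well above background in either channel of either array, so its ratio carries no level. The next, chr2L:15747623-15747672, lay inside the region at the end of the gene and measured −2.07 and −0.93 (adjusted p = 0.0065), with a bright input of 4585 and 3428. The third, chr2L:15718684-15718733 in the stol flank, measured −2.26 and −0.64 (adjusted p = 0.015).

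The input intensity moved with the ratio across the locus. The bins of the stol flank had a median log2 input of 12.8 in replicate 1 and 12.7 in replicate 2, higher than 97.5% and 97.1% of the bins of design 1. Its brightest bins formed a block, chr2L:15719001-15727000, at 12.4 to 13.5 in replicate 1 and 12.2 to 13.5 in replicate 2. The bins on both sides of the block, chr2L:15718001-15719000 and chr2L:15727001-15728000, were at 8.27 and 8.46 in replicate 1. The widest probe gaps of the locus lie at the edges of this block. Whether its probes match other places in the genome was not tested. In the ND-B17-side part the medians were 8.46 and 8.15, higher than 7.54% and 8.44% of bins. Over the 45 bins, Spearman's rho between log2 input and log2 ratio was −0.34 in replicate 1 and −0.62 in replicate 2, and over the 67719 bins of design 1 it was −0.32 and −0.50, as descriptions of bins that share arrays and neighboring probes. The 10% of design 1 bins with the dimmest input had a median ratio of 0.34 and 0.70 in replicates 1 and 2, and the brightest 10% had −0.19 and −0.26. Within the 21 bins of the gene span, rho was −0.46 and −0.65, and within the 19 bins of the ND-B17-side part and flank it was 0.21 in replicate 1 and −0.34 in replicate 2. The input signal is also the denominator of the ratio. The part of input intensity in the level of the bound end and of the stol flank was not tested, and the files used here hold no probe sequences to set it against base composition. With normexp the highest bin fell to 1.03 and the ND-B17-side part to 0.51, and without spots not well above background they were at 1.47 and 0.82.

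**Figure D4:**
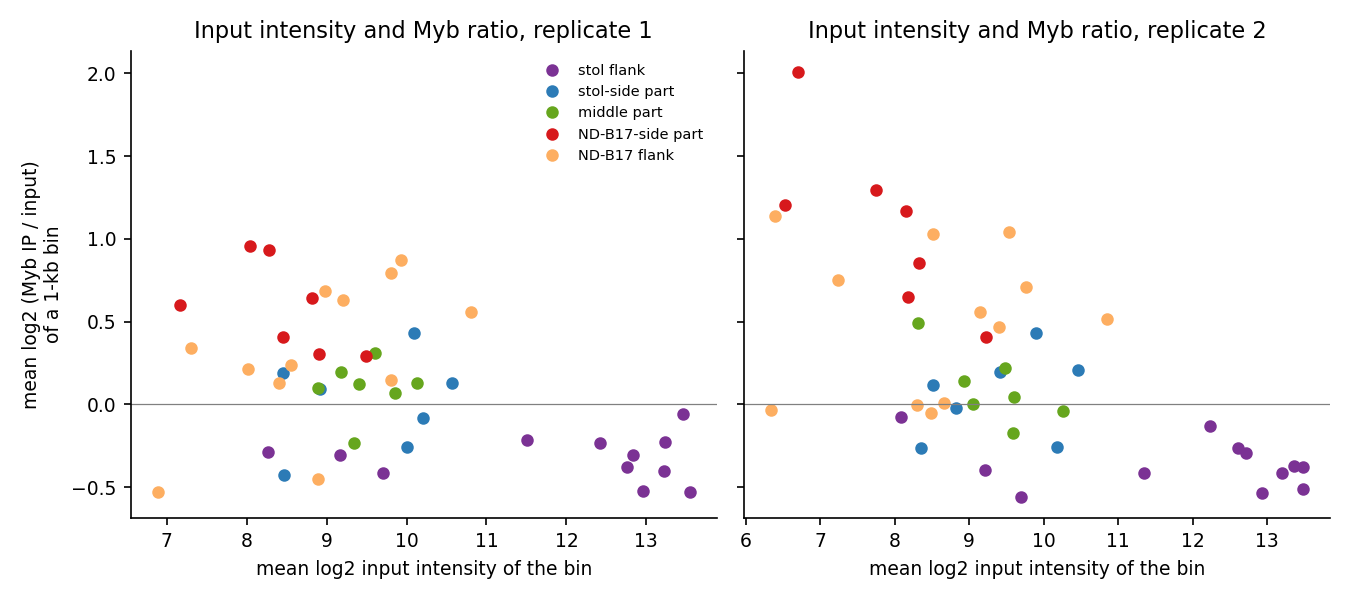
Mean log2 ratio of each 1-kb bin of the locus (vertical axis) against its mean log2 input intensity, for replicate 1 (left) and replicate 2 (right), colored by stretch. Bins of the stol flank lie mostly at high input and below 0, and bins of the ND-B17-side part lie at low input and above 0, most of all in replicate 2.

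CycE was then set beside 16 other cell cycle genes whose transcripts could be placed on dm3, each with 500 bp on both sides. The list was taken from a part of the expression table of the study that is ordered by change in Myb mutants, so it is no random sample of cell cycle genes. All 16 genes averaged above 0 in both replicates, with a median of 0.71, against a median of 0.05 over all bins. Of them 15 overlapped at least 1 enriched bin, and 60 of their 78 bins (76.9%) were enriched and 0 depleted, beside 23.5% and 10.9% of all bins. The spans of these genes always hold a transcript start, whereas the set of all bins also covers DNA outside genes. Genes of other kinds were not measured this way, so neither contrast can be read as particular to cell cycle genes. The highest averages belonged to E2f2, the repressor E2F of the Myb complex (0.95 and 1.23), fzy, the Cdc20 activator of the anaphase-promoting complex (0.91 and 1.10), and CycB, the mitotic cyclin B (0.89 and 1.12). The gene dap, which encodes the inhibitor of Cyclin E/Cdk2, averaged 0.84 and 0.91. Among the replication genes, the origin licensing gene dup averaged 0.78 and 0.65 and the helicase gene Mcm7 0.71 and 0.71.

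The whole span of CycE, at 0.25 and 0.43, averaged less than the lowest of these genes in the mean of both replicates, Cks30A, a Cdk subunit (0.44 and 0.30), though the replicates of the pair overlapped. Its ND-B17-side part alone, at 0.58 and 1.07, lay among them, with 4 of the 16 higher in the mean. Only Mcm5, with a highest bin of 1.54, had a higher bin than the 1.48 of CycE. These spans differ in length and were defined in different ways, so the values stand side by side without a test.

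**Figure D5:**
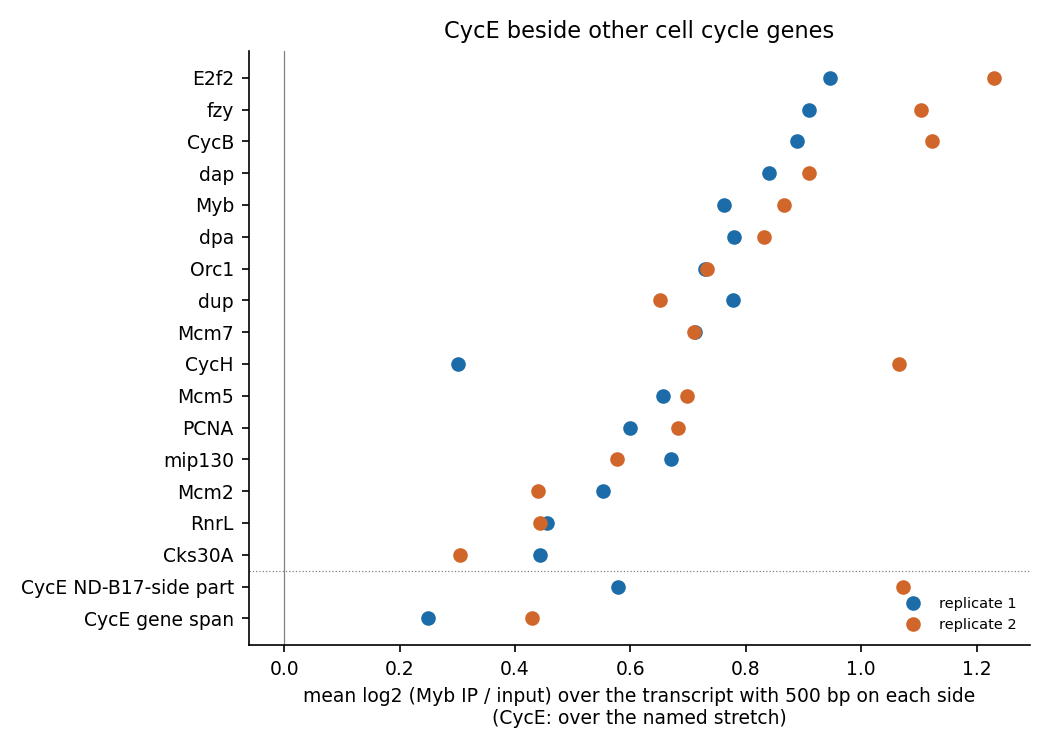
Mean log2 ratio (horizontal axis) in replicates 1 and 2 for 16 cell cycle genes over their transcripts with 500 bp on each side, and for the CycE gene span and its ND-B17-side part. All points are above 0, and the CycE gene span lies at the low end while its ND-B17-side part lies within the range of the other genes.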

How the data were processed

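Myb ChIP-chip was analysed in wing discs of 1 condition, with 2 biological replicates on 2 array designs (4 arrays). The authors deposited the scanner output of each array, with processed intensities of both channels (background-subtracted and dye-normalized by Agilent Feature Extraction version 11.5.1.1, per the file headers) and a log10 ratio, which served as a check of the ratio below. A joined table of log2 values for each replicate, also deposited by the authors, does not state its centring and was used as an alternative after centring on the median. The log2 of processed Cy5 over processed Cy3 intensity was computed, control and outlier spots were left out, saturated spots stayed in, and the median of each array was subtracted, with no loess or quantile normalization.

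Probes, 1-kb bins with at least 5 probes and steps between bins were tested against 0 with limma version 3.58.1 (R version 4.3.3), two-sided, at a Benjamini-Hochberg adjusted p of 0.05 over every feature of the table. Regions followed the thresholds of the study's methods, with a normal null fitted per design from the probes below the mode (mode −0.14, SD 0.45 on design 1), computed with scipy version 1.17.1, pandas version 2.3.3 and numpy version 2.4.6 (Python version 3.11.15). Both steps were also run on simulated data. There the features were drawn independently, while neighboring probes of the arrays share fragments, so error rates on these data were not measured. Positions named are the bound regions, the 5 highest bins, the highest and lowest bin of each stretch, the called steps and the 3 highest and lowest probes. The other depleted bins of the stol flank and the regions found only in single replicates or under alternatives were added after their values were seen. The locus, the gene list and the tests were chosen with earlier results of these data known. Precision is limited by the number of arrays.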

Additional observations from a re-analysis of the deposited data

How the results depend on the processing

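The alternatives were centring on the mode, normexp background correction with an offset of 50, the authors' log2 table, the median over probes, leaving out saturated spots, adjustment over design 1 alone, other bin sizes and probe minimums, stricter regions and each replicate alone. Chosen after seeing the data were shifted bins, a null fitted on the arms alone and leaving out spots not well above background. The levels of the stretches and the differences between them, computed under mode centring, normexp, the authors' table, without saturated or dim spots, as medians over probes and in each replicate, kept their directions. The 14 enriched bins became 9 with normexp, 22 of 87 bins of 500 bp and 7 of 22 bins of 2 kb. The gene span held 2072 bp of bound region with a mean p below 0.001, and its mean was 0.21 with normexp and 0.22 as a median over probes. With normexp the ND-B17-side part fell from 0.83 to 0.51, and its difference from the stol-side part from 0.76 to 0.49. Normexp gave 9 regions in the locus and leaving out spots not well above background 8, both with a short region in the middle part. Without replicate 1 or 2, the locus held 6 to 8 regions, which covered 5131 to 5855 bp of the gene span. The mean of the gene span then ranged from 0.25 to 0.43. Of the values answering a comparison, 81 alternatives stayed within the limits used and 5 did not. Among the other values, 186 alternatives stayed and 17 moved, while 4 gained a call and 3 lost one. Those that moved included the depleted bins, of which 2 were left under mode centring, and the count of depleted probes. The level of the stol flank also moved, to −0.24 under mode centring and −0.28 with normexp. The cause of these shifts was not tested. The tallies include alternatives that could not, or could hardly, move a value. Mode centring shifts all probes of an array alike, so differences between stretches stayed the same. No spot of the locus was saturated, so leaving out saturated spots changed little more than the centring. The tallies are therefore no measure of stability. No paired analysis was possible because there is 1 group of samples.

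With 2 replicates, differences between stretches were not tested, and limma's tests of probes, bins and steps rest on 1 residual degree of freedom and a spread shared over all features. Spots not well above background limit 27 probes of the locus. Transcript starts, introns and base composition were not analysed here.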
